A study of Saccharomyces cerevisiae with 18 samples.

Results

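Gene expression of the engineered Saccharomyces cerevisiae strains EPY330 and EPY338 was compared on the 6 arrays labeled by the direct random method, 3 per strain, out of 18 arrays in the series. The remaining arrays carried the same RNA pools labeled by an indirect and a double-stranded cDNA (ds-cDNA) method. Both strains were grown alike. A pre-culture in SD-His-Met-Leu was followed by induction in YPG medium, which lasted 24 h at 30°C. RNA from 3 cultures of each strain, each started from its own colony, was pooled in equal amounts. Labeling started from 10 μg of pooled RNA, which was reverse transcribed from random nonamers carrying Cy3 at the 5′ end, and 5 μg of the resulting cDNA was hybridized. The 3 arrays of a strain were therefore separate labelings of 1 pool. Their spread holds the error of the array procedure alone, since no culture was measured by itself, and a difference between the strains cannot be told apart from a difference between those pools. The genotypes of the strains are not given in the sources used here, so EPY338 served as the comparison strain without being called a wild type.

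Budding yeast carries a pleiotropic drug resistance (PDR) network, in which the related zinc-cluster factors Pdr1 and Pdr3 activate genes for membrane pumps of the ATP-binding cassette (ABC) and major facilitator families and for enzymes that alter membrane lipids. Expression of its hexose transporters and of the enzymes of gluconeogenesis follows the sugar supply, through repressors such as Mig1 and Mig2 and activators such as Adr1 and Cat8. Genes for ribosome assembly tend to move together with growth, and genes for storage carbohydrates with stress and nutrient limitation. Haploid cells of the α mating type express a small set of α-specific genes, among them those for the α-factor pheromone.

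The 6 arrays were much alike. Their median log2 intensities lay between 9.99 and 10.02, and the lowest Pearson correlation across genes between 2 arrays of a strain was 0.9971. Of the 5739 genes with values, 1288 (22.4%) were differentially expressed at 95% confidence (limma, Benjamini-Hochberg adjusted p under 0.05), 631 higher (11.0%) and 657 lower (11.4%) in EPY330. At 99% confidence (adjusted p under 0.01) there were 538 genes (9.37%), 280 higher (4.88%) and 258 lower (4.5%). In all 1288 genes the 3 arrays of one strain lay entirely above the 3 of the other, which was also so for 41.3% of all genes tested. The median log2 fold-change of all genes was -0.009. Fold-changes are given as EPY330/EPY338.

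Small differences made up nearly the whole list. The fold-change was under 2 in either direction for 1246 of the 1288 genes (96.7%), of which 594 were higher and 652 lower in EPY330, and for 497 of the 538 genes at 99% confidence. The median fold-change of the called genes, in either direction, was 1.22. The smallest one called was 1.09 at 95% confidence and 1.16 at 99%. The standard error of a log2 fold-change had a median of 0.057, and its 95% interval reached a median of 0.133 log2 units to either side, equal to a factor of 1.1, with quartiles of 0.11 and 0.166.

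The share of genes called rose steeply over a narrow range of sizes. Of 3555 genes that differed by no more than 1.1-fold, 8 (0.225%) were called. Between 1.1 and 1.2 it was 535 of 1388 (38.5%), between 1.2 and 1.3 it was 396 of 444 (89.2%), and between 1.3 and 1.5 all 215 were called. From 1.5 to 2, 92 of 93 genes were called (98.9%), and above 2, 42 of 44 (95.5%). The 2 genes above 2-fold that were not called, chosen after their values were seen, were YHL048C-A and YMR158C-A. Replicate 2 of EPY330 read 9.83 for YHL048C-A and 12.14 for YMR158C-A, where replicates 1 and 3 read 8.44 and 8.10, and 9.98 and 9.47. A call says that a difference from 1 was resolved, not that it was of the estimated size. The study found it hard to judge whether the modest changes called only by this method are real or come from lost specificity. It names ribosomal RNA, abundant in the labeled product, as a potential source of non-specific hybridization, which was not tested here. Tested against a fold-change of 1.1 with limma's treat, 384 genes (6.69%) differed by more than that at 95% confidence, 342 of them with an estimate under 2. Against 1.2 it was 159 genes (2.77%), with 119 under 2. The number at 95% confidence was 850 without replicate 2 of EPY338, and 651 with the equal-variance test of the study's methods.

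**Figure D1:**
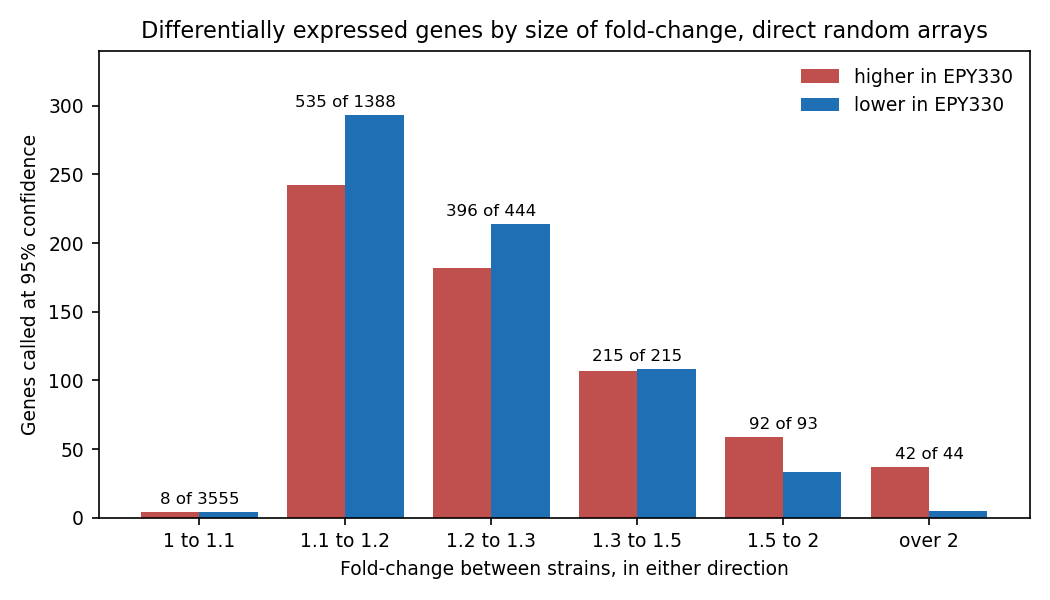
Number of genes called at 95% confidence (y axis) by size of the fold-change between the strains in either direction (x axis), for genes higher (red) and lower (blue) in EPY330, with the number called of the number measured above each pair of bars. Nearly all calls lie under 2-fold, with 535 of 1388 genes called between 1.1 and 1.2 and 396 of 444 between 1.2 and 1.3.

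The largest differences were dominated by higher expression in EPY330. Of the 44 genes above 2-fold, 39 were higher and 5 lower. Among 42 measured genes for drug export and the PDR regulon, 27 were higher in EPY330 at 95% confidence and 0 were lower, beside 11.0% of all genes higher, and 19 exceeded 2-fold. The median log2 fold-change of the 42 genes was 0.778. Labeled by the indirect method, 25 were higher, where 4.48% of all genes were higher and 4.6% lower. Labeled by the ds-cDNA method, 24 were higher, where 3.76% of all genes were higher and 2.56% lower. No member was lower in either case (0 of 42).

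Several pumps of the network were among the higher genes. Other exporters of the list were not called, such as FLR1 (log2 fold-change -0.043), ATR1 (-0.058) and QDR1 (-0.008). PDR5, the major ABC drug exporter of the plasma membrane, read 14.51, 14.44 and 14.45 log2 units in EPY330 and 12.44, 12.48 and 12.55 in EPY338, a fold-change of 3.94 (log2 1.98 ± 0.045, SE; adjusted p = 2.32e-07). SNQ2, a related ABC exporter, read 12.62, 12.73 and 12.65 against 10.87, 10.84 and 10.95, a fold-change of 3.44 (adjusted p = 7.55e-07). PDR15, a close homolog of PDR5, read 12.42, 12.35 and 12.40 against 10.06, 10.02 and 9.87, with a fold-change of 5.29 (adjusted p = 2.83e-07). For each of these exporters the groups lay far apart compared with their spread. TPO1, a polyamine exporter of the major facilitator family, was 2.27-fold higher. PDR5 and TPO1 were chosen for their roles, and FLR1, ATR1 and QDR1 as exporters not called, after their values were seen.

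Other genes of the network differed more. YGR035C, a gene of unknown function, read 12.60, 12.55 and 12.64 in EPY330 and 9.08, 8.85 and 8.88 in EPY338, a fold-change of 12.6 (log2 3.66 ± 0.068, SE; adjusted p = 1.62e-07). CIS1 (YLR346C) read 11.26, 11.22 and 11.23 against 8.35, 8.24 and 8.29, a fold-change of 7.69 (adjusted p = 1.03e-07). PDR16, a phosphatidylinositol transfer protein that affects azole resistance, read 12.29, 12.27 and 12.27 against 9.43, 9.37 and 9.57, with a fold-change of 7.07 (adjusted p = 1.77e-07). IPT1, which makes the most complex sphingolipid of yeast and is also counted with the sphingolipid genes below, was 2.30-fold higher (adjusted p = 7.8e-06).

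The regulators had smaller fold-changes than these genes. PDR3 itself read 9.27, 9.40 and 9.46 in EPY330 and 8.16, 8.31 and 8.30 in EPY338, a fold-change of 2.17 (log2 1.12 ± 0.066, SE; adjusted p = 4.71e-05). PDR1, chosen after its values were seen, read 10.20, 9.98 and 9.95 against 9.67, 9.66 and 9.92. Its groups did not overlap, but the fold-change of 1.22 did not pass the test (log2 0.29 ± 0.091, SE; adjusted p = 0.0602). RPN4, the transcription factor of proteasome genes, read 12.02, 12.06 and 12.07 against 11.18, 11.06 and 11.21, a fold-change of 1.87 (adjusted p = 3.42e-05).

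**Figure D2:**
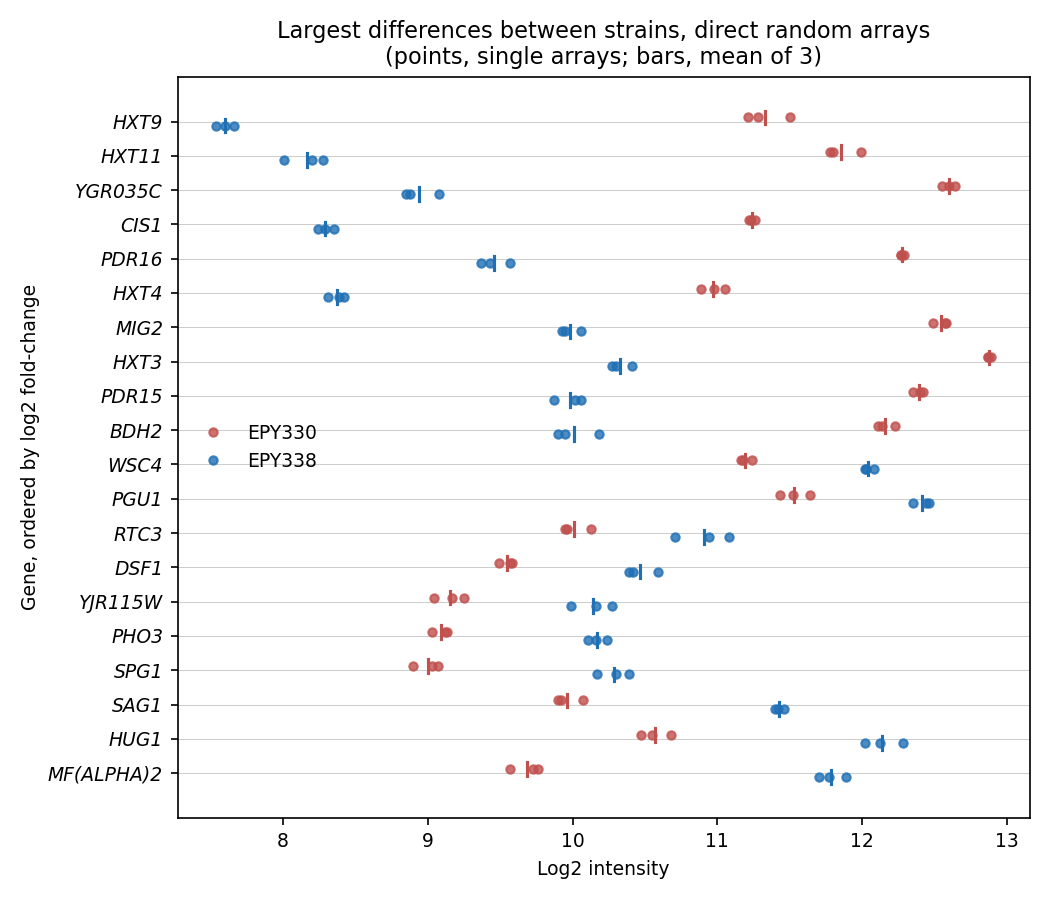
Log2 intensity (x axis) on each direct random array of the 10 genes with the highest and the 10 with the lowest log2 fold-change among those called at 99% confidence (y axis, ordered by fold-change), with points for single arrays and vertical bars for the mean of 3. Groups that do not overlap were a condition of the choice, and 41.3% of all genes tested had them. The genes run from HXT9 at 13.3-fold higher to MF(ALPHA)2 at a fold-change of 0.233.

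Hexose transport held further very large differences, but in few of its genes. Of 17 measured hexose transporter genes 7 were higher, 2 lower and 8 not called in EPY330, beside 11.0% and 11.4% of all genes. The median log2 fold-change was 0.031, and 4 genes exceeded 2-fold. HXT9 read 11.28, 11.50 and 11.21 in EPY330 against 7.60, 7.54 and 7.66 in EPY338, a fold-change of 13.3 (log2 3.73 ± 0.079, SE; adjusted p = 1.77e-07), and HXT11 had a fold-change of 12.9 (adjusted p = 2.32e-07). Both are nearly identical in sequence and are counted in the PDR list too, since their products affect drug resistance. Probes of one may have bound cDNA of the other. The EPY338 values of HXT9 lay near the lowest on the arrays, 7.26 to 7.28. HXT3, a low-affinity glucose transporter, read 12.89, 12.87 and 12.87 against 10.41, 10.30 and 10.27, a fold-change of 5.87 (adjusted p = 1.62e-07). HXT4 read 10.98, 11.05 and 10.89 against 8.42, 8.39 and 8.31, with a fold-change of 6.06 (adjusted p = 1.77e-07). The members that were lower, chosen after their values were seen, were GAL2, the galactose permease (0.764), and HXT5, which is expressed in slow growth (0.865). The call of HXT5 was lost without any 1 array but replicate 1 of EPY330, with adjusted p up to 0.0813, and in the fit of all 18 arrays (adjusted p = 0.126). MIG2, a repressor of glucose-repressed genes, read 12.49, 12.57 and 12.58 in EPY330 and 9.93, 10.06 and 9.95 in EPY338, a fold-change of 5.91 (adjusted p = 1.77e-07).

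Other genes above 2-fold had no list in common. BDH2, a gene similar to butanediol dehydrogenase, was 4.44-fold higher (log2 2.15 ± 0.077, SE; adjusted p = 2.7e-06). FMP48, which encodes a mitochondrial protein kinase, read 9.96, 9.91 and 9.74 against 8.21, 8.22 and 8.20, a fold-change of 3.17 (adjusted p = 2.76e-06). HSP31, a chaperone and methylglyoxalase, was 2.54-fold higher (adjusted p = 7.42e-05), the largest value among 33 cytosolic chaperone genes, of which 7 were higher and 1 was lower. The lower call was lost without any 1 array of EPY330 or replicate 2 of EPY338.

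Only 5 genes above 2-fold were lower in EPY330. MF(ALPHA)2, a minor gene for the α-factor pheromone, read 9.76, 9.57 and 9.73 in EPY330 and 11.77, 11.70 and 11.89 in EPY338, a fold-change of 0.233 (log2 -2.10 ± 0.07, SE; adjusted p = 2.08e-06). SAG1, the agglutinin of α cells, read 9.92, 9.90 and 10.07 against 11.46, 11.42 and 11.40, a fold-change of 0.362 (adjusted p = 3.49e-06). HUG1, a small inhibitor of ribonucleotide reductase, read 10.68, 10.55 and 10.47 against 12.12, 12.02 and 12.28, a fold-change of 0.335 (adjusted p = 1.92e-05). The others were SPG1, named for survival in stationary phase at high temperature (0.410; adjusted p = 3.14e-05), and PHO3, a constitutive acid phosphatase (0.474; adjusted p = 1.5e-05). In these bulk extracts a lower level in each cell and a smaller share of expressing cells cannot be told apart.

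Of 32 measured genes of mating and the pheromone response 6 were lower and 1 higher in EPY330, beside 11.4% of all genes lower, with a median log2 fold-change of -0.077, and 25 were not called. MF(ALPHA)2, SAG1 and MF(ALPHA)1 were not in this list, whose largest called fold-change in either direction was 1.47. FIG2, an adhesin of mating projections, had a fold-change of 0.714 (adjusted p = 0.0034). AGA1, an anchorage subunit of a-agglutinin, had one of 0.683 (adjusted p = 0.00447), and FUS1, a cell fusion protein, one of 0.779 (adjusted p = 0.00891). The calls of AGA1 and FUS1 were lost with the methods' t-test. PRM4 was higher, at 1.19 (adjusted p = 0.00619), but not in the fit of all 18 arrays (adjusted p = 0.0535). MF(ALPHA)1, the main α-factor gene, was lower at 0.664 (adjusted p = 0.00069). STE3, the a-factor receptor of α cells, had a fold-change of 0.878 and did not pass the test (adjusted p = 0.0745), and STE2, the receptor of the opposite mating type, had one of 1.02 (adjusted p = 0.72). The last 3 genes were chosen after their values were seen.

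The most firmly resolved differences under 2-fold were clear on single arrays. Among the genes higher in EPY330, YPL068C, a gene of unknown function, read 10.15, 10.09 and 10.15 against 9.10, 9.15 and 9.16, a fold-change of 1.99 (adjusted p = 6.24e-06). RTS3, a putative component of protein phosphatase 2A, read 13.31, 13.22 and 13.33 against 12.34, 12.34 and 12.36, a fold-change of 1.92 (adjusted p = 1.18e-05). OYE3, an NADPH oxidoreductase, read 8.83, 8.77 and 8.86 against 7.93, 7.96 and 7.97, a fold-change of 1.82 (adjusted p = 1.52e-05). Each difference was many times the spread within a strain, which a choice by smallest p favours. DNF2, a flippase that moves phospholipids across the plasma membrane, was 1.85-fold higher (adjusted p = 3.13e-05), and SFK1, a plasma membrane protein, 1.91-fold (adjusted p = 5.6e-05). The isomaltase gene IMA3, which has near-identical copies, was 1.91-fold higher, and the entries PRM7 and YDL038C were 1.73-fold and 1.72-fold higher. YDL038C had no match in the annotation used, and whether it is a gene separate from PRM7 was not tested. The smallest of these 10, YHI9, read 10.37, 10.38 and 10.37 against 9.79 on each EPY338 array, a fold-change of 1.50 (adjusted p = 6.01e-05).

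Among the genes lower in EPY330, WSC4 read 11.24, 11.18 and 11.16 against 12.03, 12.08 and 12.02, a fold-change of 0.556 (adjusted p = 1.87e-05). CRF1, a corepressor of ribosomal protein genes, read 8.73, 8.65 and 8.69 against 9.48, 9.48 and 9.53, a fold-change of 0.573 (adjusted p = 2.24e-05). SUT1, a regulator of sterol uptake, read 9.68, 9.66 and 9.72 against 10.38, 10.35 and 10.35, a fold-change of 0.627 (adjusted p = 4.5e-05). For these genes too, groups that do not overlap were a condition of the choice. The remainder were RGI1, which is induced in respiratory growth (0.578), the glycogen branching enzyme GLC3 (0.594), the mannitol dehydrogenase homolog DSF1 (0.528), the pectin-degrading enzyme PGU1 (0.541), MBR1 (0.623), YMR206W (0.569) and MRK1, a kinase of the GSK-3 family (0.656).

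**Figure D3:**
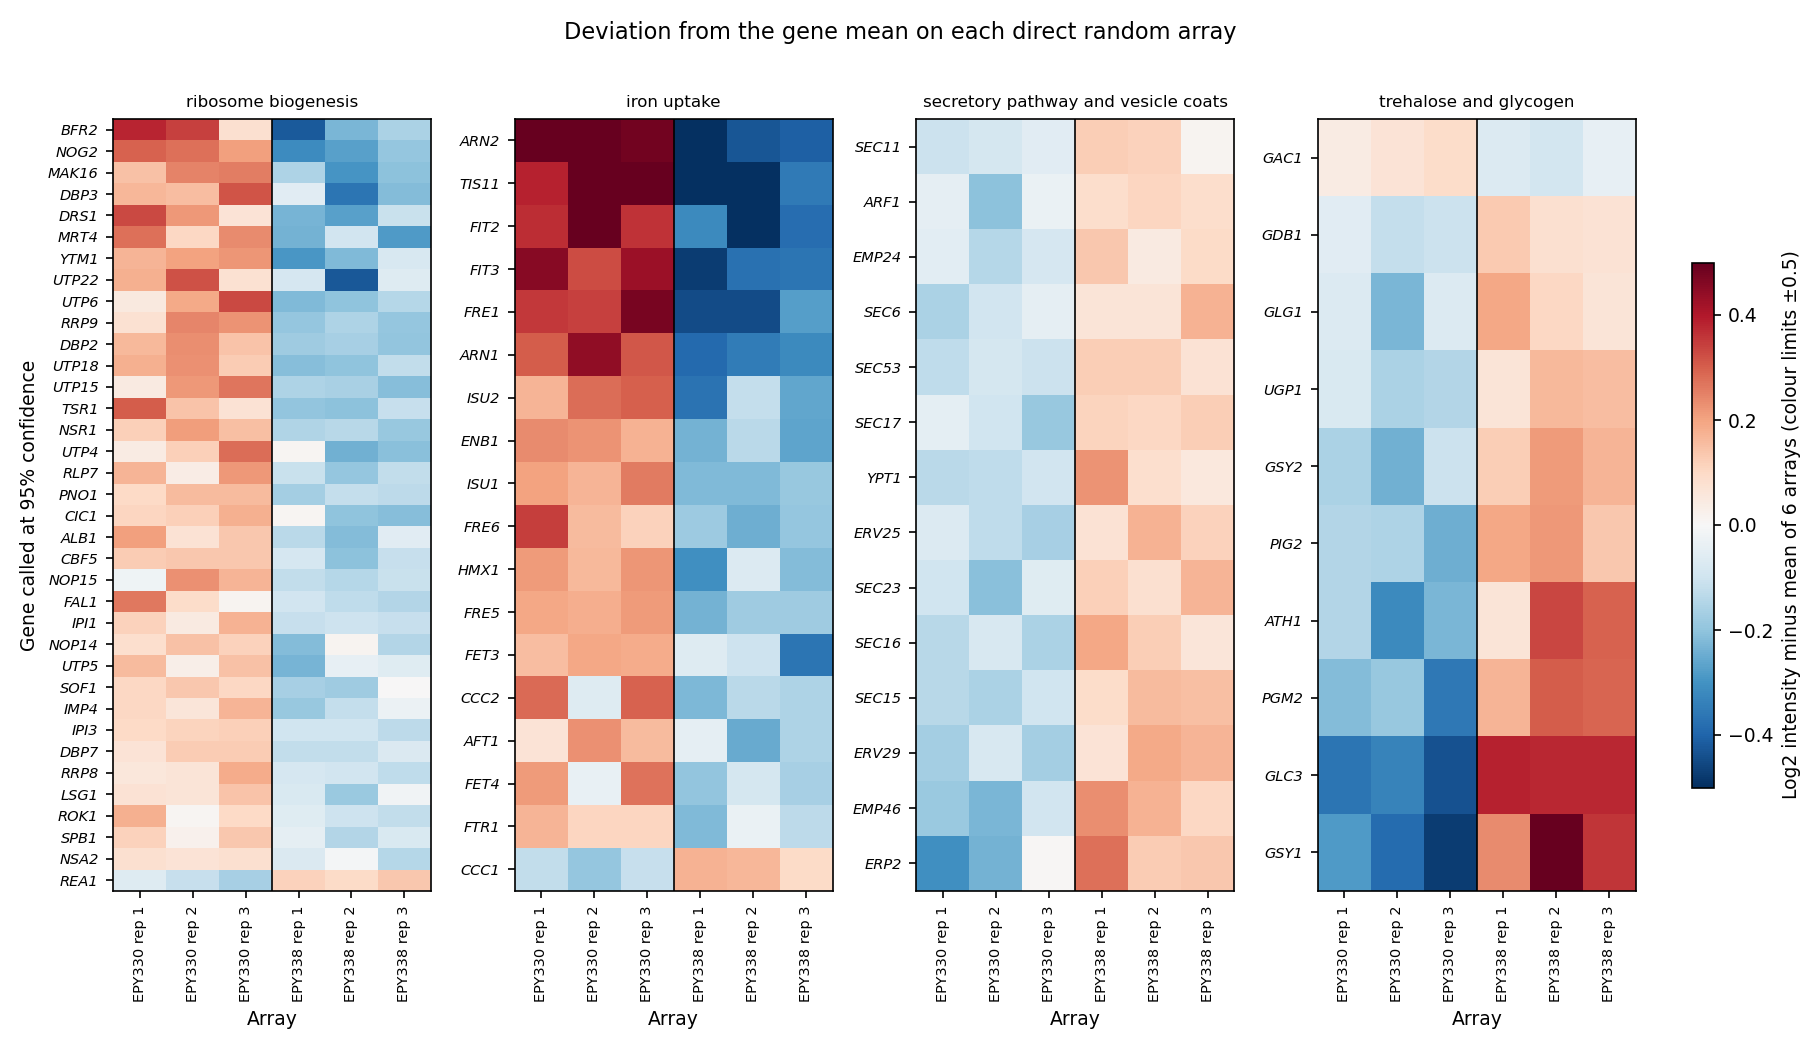
Log2 intensity of each direct random array of EPY330 and EPY338 relative to the mean of the 6 arrays, for a selection of genes called under 2-fold. In every called gene the arrays of one strain lie apart from those of the other, as in 41.3% of all genes tested.

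At the lower limit of what was called at 99% confidence, differences of about 1.16-fold still separated the arrays of the strains. JJJ3, a J-domain protein of the diphthamide pathway, read 7.99, 8.04 and 8.01 in EPY330 and 7.79, 7.76 and 7.81 in EPY338, a fold-change of 1.17 (log2 0.22 ± 0.039, SE; adjusted p = 0.00743). The values of JJJ3 were not far above the lowest on the arrays, 7.26 to 7.28. IPI3, a pre-ribosome processing factor, read 8.86, 8.87 and 8.88 against 8.66, 8.66 and 8.63 (1.17; adjusted p = 0.00616). SEC53, the phosphomannomutase that feeds protein glycosylation, read 11.65, 11.69 and 11.67 against 11.90, 11.90 and 11.85 (0.861; adjusted p = 0.00914). ADH1, the main alcohol dehydrogenase of fermentation, read 14.03, 14.06 and 14.02 against 14.26, 14.28 and 14.23 (0.858; adjusted p = 0.00809). The others of this kind were RBP95 (1.16) and BXI1 (0.859). In a fit of all 18 arrays, where the methods share 1 spread per gene, the calls of RBP95, IPI3, BXI1 and ADH1 were lost, with an adjusted p of 0.122 for IPI3 and ADH1.

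Small differences were then read by function, from 40 gene lists that hold 1382 genes. Counts are given beside the 11.0% of all genes higher and 11.4% lower, and medians beside the -0.009 of all genes. Members named because they went against their list were chosen after their values were seen.

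Iron uptake genes were the list with the second highest median, 0.302, after the PDR list. Of 30 measured genes 17 were higher in EPY330 and 1 was lower, with 13 and 8 higher by the indirect and ds-cDNA methods. FIT3, a cell wall mannoprotein that retains siderophore iron, read 15.13, 15.00 and 15.10 in EPY330 and 14.20, 14.30 and 14.31 in EPY338, a fold-change of 1.75 (adjusted p = 8.7e-05). ARN2, a siderophore transporter, read 10.96, 10.96 and 10.94 against 9.81, 10.03 and 10.05, a fold-change of 1.99 (adjusted p = 9.63e-05), and its relative ARN1 had a fold-change of 1.63 (adjusted p = 0.000153). TIS11, which marks mRNAs of iron-using proteins for decay when iron is short, read 11.53, 11.71 and 11.67 against 10.56, 10.60 and 10.79, a fold-change of 1.98 (adjusted p = 0.000185). CCC1, which stores iron in the vacuole, went the other way at 0.819 (adjusted p = 0.00447).

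Of 18 measured genes of gluconeogenesis and the glyoxylate cycle EPY330 had 9 higher and 1 lower, with a median log2 fold-change of 0.204, and 8 and 9 were higher by the indirect and ds-cDNA methods. PCK1, which catalyses the committed step of gluconeogenesis, read 11.51, 11.46 and 11.51 against 10.81, 10.94 and 10.84, a fold-change of 1.55 (adjusted p = 0.000185). MLS1, the malate synthase of the glyoxylate cycle, read 10.31, 10.18 and 10.24 against 9.26, 9.29 and 9.51, a fold-change of 1.85 (adjusted p = 0.000309). IDP2, a cytosolic isocitrate dehydrogenase, had a fold-change of 1.75 (adjusted p = 0.000327) and SFC1, a mitochondrial succinate-fumarate transporter, one of 1.32 (adjusted p = 0.00112). The exception was CAT2, a carnitine acetyltransferase, at 0.814 (adjusted p = 0.00537).

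Of 41 nuclear genes for the respiratory chain and ATP synthase 15 were higher, 3 lower and 23 not called in EPY330, with a median log2 fold-change of 0.136. The number higher was 8 without replicate 3 of EPY330, 9 without replicate 3 of EPY338 and 5 in the fit of all 18 arrays. CYC1, the main cytochrome c, read 12.20, 12.11 and 12.23 against 11.51, 11.62 and 11.40, a fold-change of 1.60 (adjusted p = 0.000499), and NDE1, an external NADH dehydrogenase, had one of 1.36 (adjusted p = 0.00132). The 3 lower genes were COX5B at 0.698 (adjusted p = 0.00264), NDE2 at 0.790 (adjusted p = 0.0235) and CYC7 at 0.880 (adjusted p = 0.0327). COX5B and CYC7 encode the forms of their subunits that are used when oxygen is low, and NDE2 is another external NADH dehydrogenase. The call of NDE2 was lost without replicate 2 of EPY330 or replicate 1 or 2 of EPY338 (adjusted p up to 0.0726), and that of CYC7 without any 1 array but replicate 3 of EPY330 (adjusted p up to 0.0812). Of 20 genes of the TCA cycle 6 were higher, 0 lower and 14 not called, with a median of 0.089, among them IDH1 (1.3; adjusted p = 0.00245) and SDH1 (1.23; adjusted p = 0.00494). HAP4, the regulated subunit of the activator of respiration genes, was 1.23-fold higher (adjusted p = 0.00523).

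Ribosome assembly showed many small increases. Of 108 measured ribosome biogenesis genes 35 were higher and 1 lower in EPY330, none of them above 2-fold, with a median log2 fold-change of 0.174. NOG2, a GTPase of the large subunit precursor whose gene overlaps the small nucleolar RNA gene SNR191, read 11.47, 11.45 and 11.38 against 10.86, 10.90 and 10.98, a fold-change of 1.43 (adjusted p = 0.000499). MAK16 read 9.77, 9.87 and 9.88 against 9.47, 9.33 and 9.42, a fold-change of 1.35 (adjusted p = 0.00165). NSR1, the yeast nucleolin, read 12.17, 12.26 and 12.20 against 11.90, 11.91 and 11.86, a fold-change of 1.25 (adjusted p = 0.00223), and the RNA helicase DBP2 had one of 1.29 (adjusted p = 0.00122). REA1, the AAA ATPase of the large subunit precursor, was the lower gene at 0.854 (adjusted p = 0.00958), a call that the fit of all 18 arrays did not keep. Indirect labeling called 20 of the 108 genes higher and ds-cDNA labeling 10, with 0 lower in both. The number higher was 23 without replicate 3 of EPY330, 19 in the fit of all 18 arrays and 12 with the methods' t-test.

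Subunits and initiation factors of RNA polymerases I and III, which transcribe the ribosomal and transfer RNAs, had 10 of 28 genes higher and 0 lower, at a median of 0.129. RPA49 had a fold-change of 1.24 (adjusted p = 0.00769) and RPC82 one of 1.26 (adjusted p = 0.00806). The number higher was 6 without replicate 1 or 2 of EPY330 or replicate 2 of EPY338, and 1 with the methods' t-test, which ended the call of RPC82. Of 132 genes for cytosolic ribosomal proteins 14 were higher, a share near that of all genes, and 3 were lower, with a median of 0.026. The 3 lower became 0 or 1 without any 1 array, and the 14 became 5 without replicate 2 of EPY338, 7 without replicate 2 of EPY330, and 8 without replicate 3 of EPY330 or replicate 1 of EPY338. Single members such as RPS28B at 1.26 (adjusted p = 0.00286) and RPS18B at 1.25 (adjusted p = 0.00431) were called, but many of these genes have near-identical copies whose probes may share cDNA, and both calls were lost in the fit of all 18 arrays. Of 78 mitochondrial ribosomal proteins 5 were higher, between 2 and 4 without any 1 array, and 1 was lower, with a median of -0.032. The 1 lower became 0 without replicate 2 of EPY330 or replicate 1 or 2 of EPY338, and 3 without replicate 3 of either strain.

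The proteasome list held differences near the smallest that were called. Of 33 subunit genes 6 were higher and 0 lower in EPY330, all between 1.11-fold and 1.15-fold, and the median log2 fold-change was 0.079, beside the 1.87-fold of their regulator RPN4. PRE4 read 12.68, 12.69 and 12.71 in EPY330 and 12.56, 12.56 and 12.50 in EPY338, a fold-change of 1.11 (log2 0.16 ± 0.04, SE; adjusted p = 0.0304). SCL1 read 12.94, 12.99 and 13.12 against 12.85, 12.76 and 12.82, a fold-change of 1.15 (adjusted p = 0.0412). The call of PRE4 was lost without any 1 of the arrays and that of SCL1 without any but replicate 1 of EPY330. The count fell to between 0 and 2 without any 1 of the 6 arrays, was 0 in the fit of all 18 arrays, and was 0 with both other labeling methods.

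**Figure D4:**
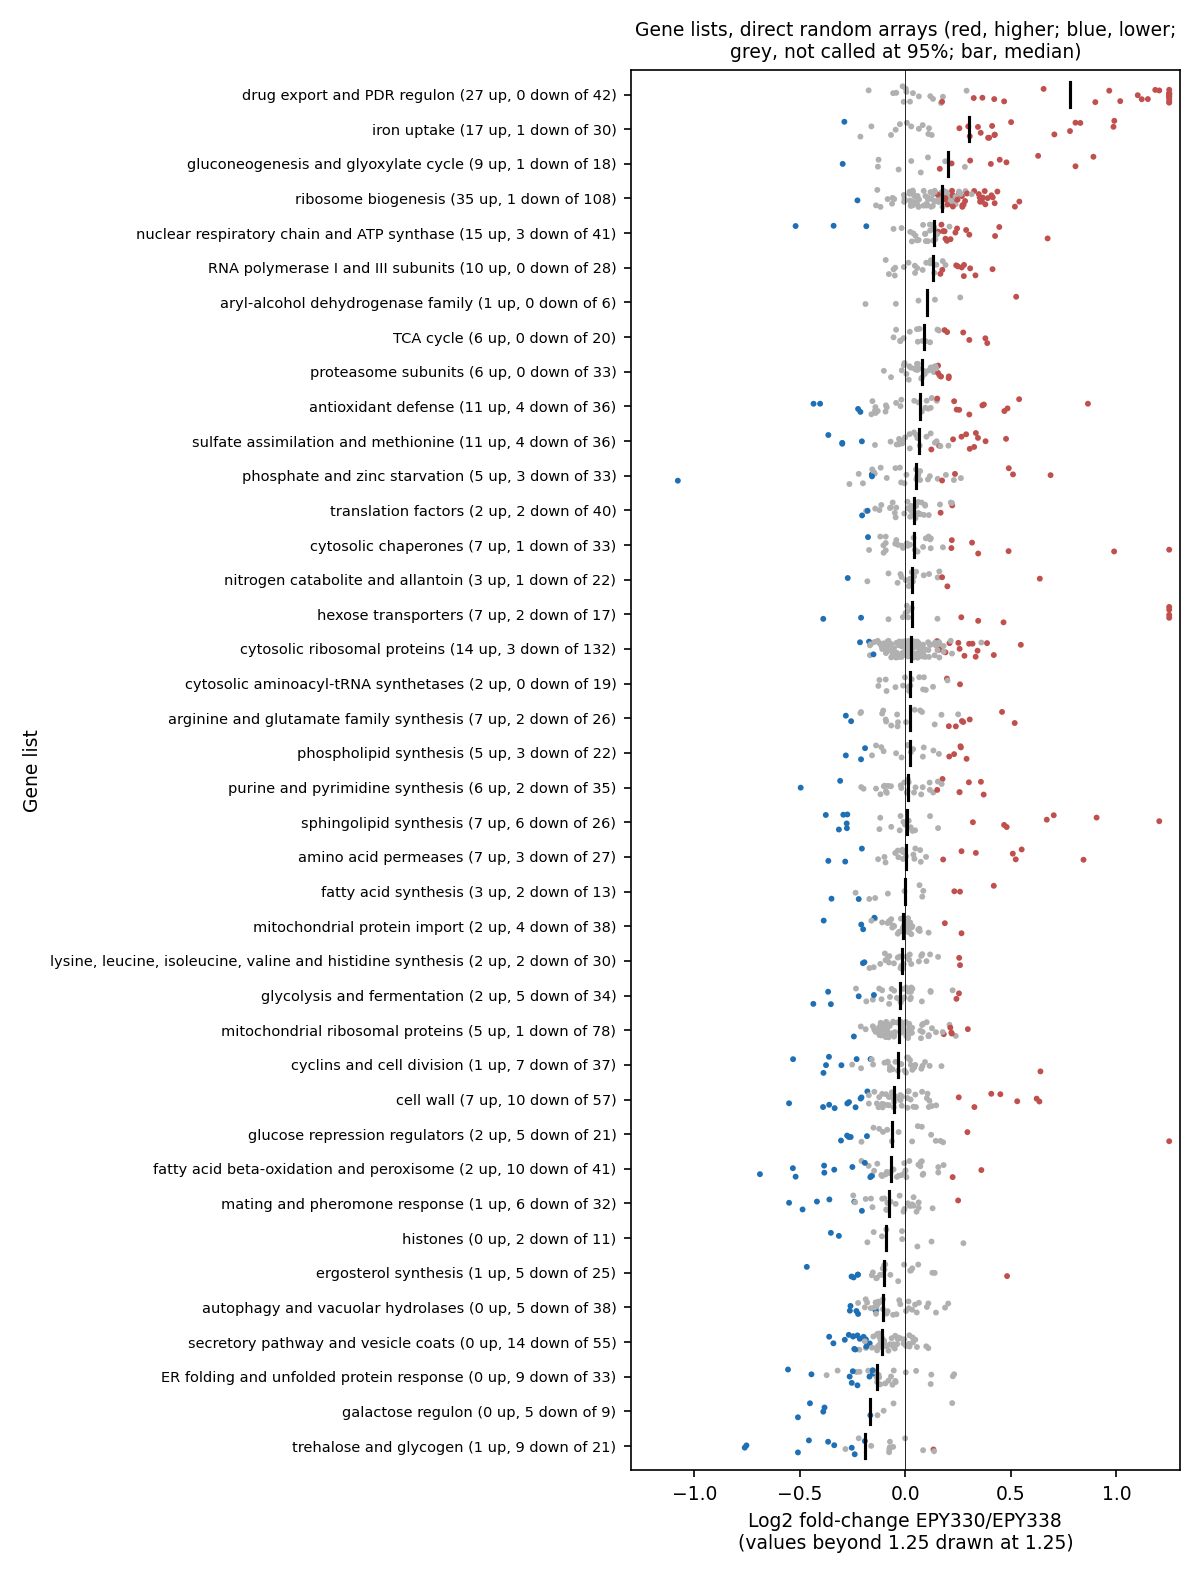
Log2 fold-change EPY330/EPY338 (x axis) of every measured member of the 40 gene lists (y axis, ordered by median), with genes higher (red), lower (blue) or not called (grey) at 95% confidence and a bar at the list's median. Medians run from 0.778 for drug export and the PDR regulon to -0.192 for trehalose and glycogen, and outside the top list few points lie beyond 1 log2 unit.

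At the other end of the lists were genes of storage carbohydrates. Of 21 genes of trehalose and glycogen metabolism 9 were lower and 1 higher, with the lowest median of the 40 lists, -0.192, and the indirect and ds-cDNA methods gave 11 and 3 lower. The 1 higher became 0 without any 1 of the 6 arrays, with the replicate block, with median centring, with quantile normalization, without the dimmest genes and in the fit of all 18 arrays. GLC3 read 11.51, 11.54 and 11.44 in EPY330 and 12.26, 12.25 and 12.25 in EPY338, a fold-change of 0.594 (adjusted p = 3.42e-05). GSY1, a glycogen synthase, read 9.91, 9.81 and 9.72 against 10.43, 10.74 and 10.55, a fold-change of 0.590 (adjusted p = 0.00114), and PIG2, a regulator of glycogen synthase, had one of 0.776 (adjusted p = 0.00196). PGM2, the phosphoglucomutase that leads both into glycogen and out of galactose use, read 12.86, 12.89 and 12.72 against 13.25, 13.38 and 13.37, a fold-change of 0.703 (adjusted p = 0.00156).

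PGM2 belongs to the galactose regulon as well. Of its 9 measured genes 5 were lower, 0 higher and 4 not called, with a median of -0.166, and 5 and 4 were lower by the indirect and ds-cDNA methods. GAL7, of the Leloir pathway, read 13.82, 13.87 and 13.84 against 14.33, 14.14 and 14.22, a fold-change of 0.767 (adjusted p = 0.00315). GAL2 read 13.22, 13.10 and 13.20 against 13.62, 13.53 and 13.53, a fold-change of 0.764 (adjusted p = 0.00193), and GCY1, a glycerol dehydrogenase induced by galactose, had one of 0.731 (adjusted p = 0.00216). The strains did not overlap in these genes, as in all 1288 called genes and in 41.3% of all genes tested.

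Of 33 genes of folding in the endoplasmic reticulum (ER) and the unfolded protein response 9 were lower, 0 higher and 24 not called, with a median of -0.134. MPD1, a protein disulfide isomerase, read 9.23, 9.31 and 9.38 in EPY330 and 9.88, 9.86 and 9.84 in EPY338, a fold-change of 0.680 (adjusted p = 0.000371). SIL1, the exchange factor of the ER chaperone Kar2, had a fold-change of 0.735 (adjusted p = 0.00262), and CUE1, which recruits a ubiquitin-conjugating enzyme for ER-associated degradation, one of 0.841 (adjusted p = 0.00402). The number lower was 5 without replicate 1 or 2 of EPY330 and 4 without replicate 3 of EPY338.

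Among 55 genes of the secretory pathway and vesicle coats 14 were lower, by 1.12-fold to 1.28-fold, 0 higher and 41 not called, with a median of -0.111. ERV29, a cargo receptor of transport vesicles, read 12.74, 12.83 and 12.74 against 12.98, 13.10 and 13.08, a fold-change of 0.820 (adjusted p = 0.00732). EMP46, another cargo receptor, had a fold-change of 0.789 (adjusted p = 0.00506), and SEC53 is described above. With the indirect method 1 of these genes was lower and with the ds-cDNA method 0. The number was 9 without replicate 1 or 2 of EPY330 or replicate 1 of EPY338, and 6 with the methods' t-test or in the fit of all 18 arrays.

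Lipid genes moved in both directions. Of 25 ergosterol genes 5 were lower and 1 was higher, with a median of -0.100. ERG9, squalene synthase, was the higher one, at 10.15, 10.35 and 10.17 against 9.78, 9.82 and 9.63, a fold-change of 1.40 (adjusted p = 0.00401). HMG2, a form of HMG-CoA reductase, read 9.41, 9.40 and 9.32 against 9.96, 9.87 and 9.69, a fold-change of 0.724 (adjusted p = 0.00441), and ERG13, HMG-CoA synthase, had one of 0.856 (adjusted p = 0.00957). Without replicate 1 of EPY338 the number lower was 3. Of 26 sphingolipid genes 7 were higher and 6 lower. Besides IPT1, the hydroxylase genes SCS7 (1.59; adjusted p = 0.000288) and SUR2 (1.40; adjusted p = 0.00167) were higher, and CSH1, a subunit of a mannosyl inositol phosphorylceramide synthase, was lower (0.770; adjusted p = 0.00222). OLE1, the fatty acid desaturase, was 1.34-fold higher (adjusted p = 0.00306).

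Among 41 genes of β-oxidation and the peroxisome 10 were lower and 2 higher, with a median of -0.067. IDP3, a peroxisomal isocitrate dehydrogenase, read 8.87, 8.95 and 8.90 against 9.38, 9.51 and 9.42, a fold-change of 0.691 (adjusted p = 0.000469). SPS19, a peroxisomal dienoyl-CoA reductase, had a fold-change of 0.620 (adjusted p = 0.000573). PXA1, a subunit of the fatty acid importer, had one of 0.792 (adjusted p = 0.00629), while PEX21, an import receptor partner, was 1.28-fold higher (adjusted p = 0.00675) and lost its call with the methods' t-test. The number lower was 5 without replicate 2 of EPY338, 6 without its replicate 3, and 3 with the methods' t-test, and the 2 higher became 1 without replicate 2 or 3 of EPY330 or replicate 3 of EPY338.

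Amino acid genes were spread on both sides of 0. Of 27 genes of amino acid permeases and their regulators 7 were higher and 3 lower, led by STP4, a predicted zinc-finger regulator (1.80; adjusted p = 6.01e-05), and AGP1, a broad-range permease (1.47; adjusted p = 0.000344). The 3 lower became 1 without replicate 1 or 3 of EPY330 or replicate 2 or 3 of EPY338, and 0 with the methods' t-test. CPA1, of arginine synthesis, was 1.43-fold higher (adjusted p = 0.000457) and GLN1, glutamine synthetase, 1.37-fold (adjusted p = 0.000362), in a list with 7 higher and 2 lower of 26. The 2 lower became 1 without any 1 array of EPY330 and 0 without replicate 1 of EPY338 or with the methods' t-test. In sulfate assimilation and methionine synthesis 11 of 36 genes were higher and 4 lower. MET17, whose gene overlaps YLR302C, had a fold-change of 1.39 (adjusted p = 0.000954) and MET5, a sulfite reductase subunit, one of 1.3 (adjusted p = 0.00202). The 11 became 7 without replicate 1 of EPY330, and the 4 lower became 2 without replicate 1 or 3 of EPY330 or replicate 2 of EPY338 and 1 with the methods' t-test.

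Antioxidant genes numbered 11 higher and 4 lower of 36. Besides OYE3, GPX2, a glutathione peroxidase, read 8.91, 8.93 and 8.92 against 8.42, 8.33 and 8.38, a fold-change of 1.45 (adjusted p = 0.000176), and SRX1, sulfiredoxin, had one of 1.38 (adjusted p = 0.000946). GLR1, glutathione reductase, was lower at 0.740 (adjusted p = 0.00204). The 11 became 7 without replicate 1 or 3 of EPY330 or replicate 2 of EPY338. Phosphate genes also split, since PHO5, the repressible acid phosphatase, was 1.61-fold higher (adjusted p = 0.00159) and the phosphate transporter PHO84 1.40-fold (adjusted p = 0.00134), against the lower PHO3 above.

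Glycolysis and fermentation had few calls, with 2 of 34 genes higher and 5 lower and a median of -0.024. GLK1, glucokinase, read 13.69, 13.61 and 13.61 against 14.06, 13.98 and 13.98, a fold-change of 0.776 (adjusted p = 0.00184), and HXK1, a hexokinase, had one of 0.783 (adjusted p = 0.00356). In the cell division list 7 of 37 genes were lower and 1 higher. The higher gene was RNR1, the large subunit of ribonucleotide reductase, at 10.99, 11.06 and 10.86 against 10.16, 10.58 and 10.25, a fold-change of 1.56 (adjusted p = 0.00675), a call that the methods' t-test did not keep. RNR2, a small subunit, was lower at 0.778 (adjusted p = 0.00253), as was HUG1, the inhibitor of the enzyme, above. Cell wall genes counted 7 higher and 10 lower of 57, with a median of -0.053. The members with the smallest p were higher, among them YGP1, a secreted glycoprotein, at 1.55 (adjusted p = 0.000144). The mannoprotein TIP1 was at 1.54 (adjusted p = 0.00059), but at 0.98 by ds-cDNA labeling. The 10 lower became 9 without replicate 1 of EPY338 and between 4 and 6 without any other array.

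The remaining lists are given by their counts. Autophagy and vacuolar hydrolases had 5 lower and 0 higher of 38, with between 2 and 4 lower without any 1 array. Purine and pyrimidine synthesis had 6 higher, between 2 and 4 without any 1 array, and 2 lower of 35. Phosphate and zinc starvation genes had 5 higher and 3 lower of 33, with 3 higher without replicate 1 or 2 of EPY330 or replicate 2 or 3 of EPY338 and 1 lower without replicate 3 of EPY330 or any 1 array of EPY338. Phospholipid synthesis had 5 higher, between 1 and 3 without any 1 array, and 3 lower of 22. Regulators of glucose repression had 2 higher, MIG2 and HAP4, and 5 lower of 21, the latter 3 without replicate 2 of either strain. Fatty acid synthesis had 3 higher and 2 lower of 13, nitrogen catabolite and allantoin genes 3 higher and 1 lower of 22, and synthesis of lysine, histidine and branched amino acids 2 higher and 2 lower of 30. Translation factors had 2 higher and 2 lower of 40, and mitochondrial protein import had 2 higher and 4 lower of 38. Aminoacyl-tRNA synthetases had 2 of 19 higher, histones 2 of 11 lower, and the aryl-alcohol dehydrogenase family 1 of 6 higher. Several of these counts fell to 0 when an array was left out: the 2 histones without replicate 2 of EPY330 or replicate 1 or 2 of EPY338, the 3 lower phospholipid genes without replicate 1 or 3 of EPY330 or replicate 3 of EPY338, and the 2 higher import genes without replicate 1 or 2 of either strain. The 2 higher amino acid genes fell to 0 without replicate 2 or 3 of EPY330 or replicate 1 of EPY338, the 2 lower ones without replicate 1 or 2 of EPY330 or replicate 2 of EPY338, and the 2 lower translation factors without replicate 3 of either strain. The 3 higher nitrogen genes became 1 without replicate 3 of either strain, and the 4 lower import genes became 1 without replicate 2 of EPY330 or replicate 1 or 3 of EPY338.

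The small differences were set beside the values of the other labeling methods. All 3 methods used the same 2 RNA pools, so these are repeat measurements of the pools and not of the strains. Of the 1246 genes called under 2-fold, 1172 (94.1%) had the same direction with the indirect method, 1129 (90.6%) with the ds-cDNA method and 1071 (86.0%) with both. Among the 4451 genes that were not called, most of them under 1.1-fold, the shares were 67.4% by indirect and 65.7% by ds-cDNA labeling. At matched size the shares lay closer. Between 1.1-fold and 1.2-fold the direction was the same for 91.6% and 86.4% of the called genes and for 84.2% and 76.7% of those not called, and between 1.2-fold and 1.3-fold for 93.9% and 91.9% against 81.2% and 83.3%. Same directions were found for 98.6% and 97.7% of the called genes between 1.3-fold and 1.5-fold. The indirect method itself called 361 of the 1246 genes and the ds-cDNA method 226, beside 9.08% and 6.33% of all genes. An opposite call occurred for 0 genes with the indirect method and for 1 with the ds-cDNA method. Over the 1246 genes the log2 fold-change, counted as positive in the direction of the direct random call, had a median of 0.281 by direct random labeling. It was 0.228 by indirect and 0.207 by ds-cDNA labeling. The direct random median is from the arrays that selected the genes.

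**Figure D5:**
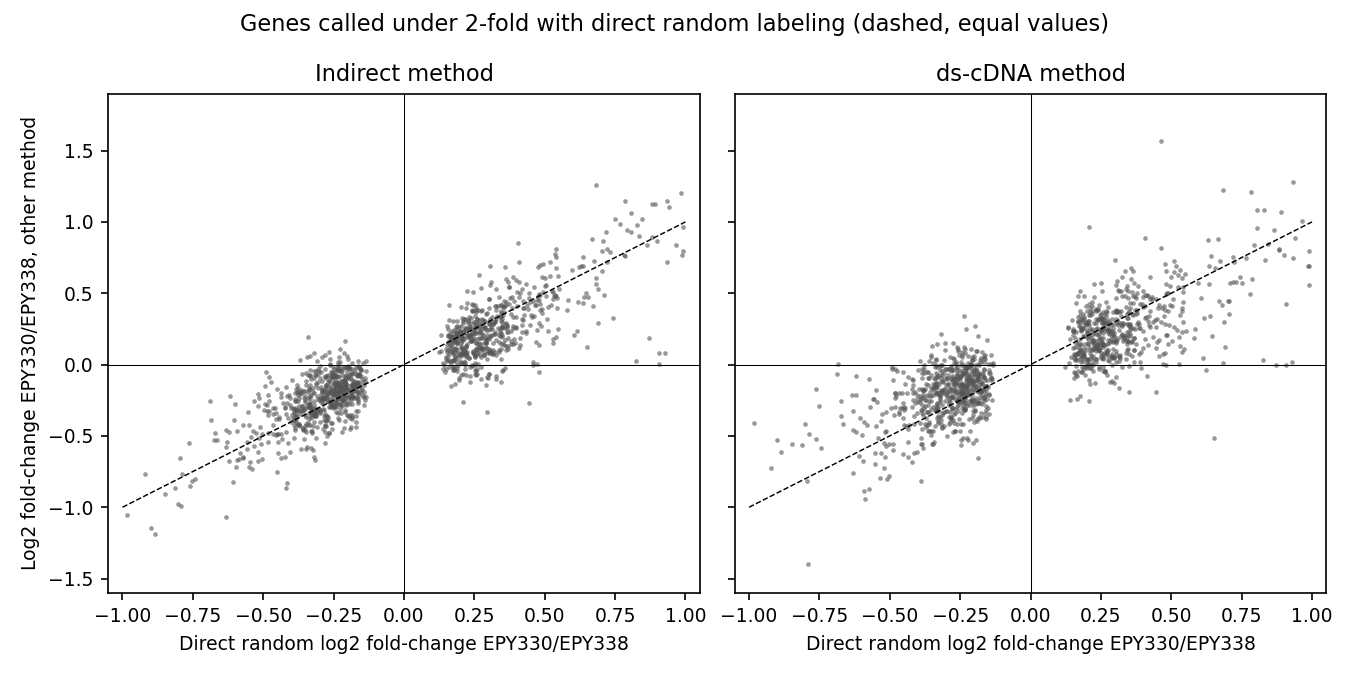
Log2 fold-change EPY330/EPY338 of the 1246 genes called under 2-fold with the direct random method (x axis) against the same with the indirect (left) and ds-cDNA (right) method (y axis), with 1 point per gene and a dashed line at equal values. Most points lie in the quadrants of the same direction, 94.1% on the left and 90.6% on the right, with a wider scatter on the right.

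Whether the strain difference depended on the labeling method was tested by the interaction of both in 1 limma fit of all 18 arrays. Between the direct random and indirect methods 0 genes differed at 95% confidence, while 325 had an unadjusted p under 0.05. Against ds-cDNA labeling 33 genes (0.575%) differed, of which 25 were called with direct random labeling and 12 of these lay under 2-fold. SPS19 was one, with a fold-change of 0.620 by direct random, 0.837 by indirect and 0.956 by ds-cDNA labeling (interaction with ds-cDNA, adjusted p = 0.0236). MBR1 was another, at 0.623, 0.763 and 1.00 in the same order (adjusted p = 0.00456), as was TIP1, at 1.54, 1.61 and 0.98 (adjusted p = 0.0156). SFC1 and RGI1 differed the other way, with the larger change by ds-cDNA labeling, at 1.32, 1.81 and 1.85 for SFC1 (adjusted p = 0.0142) and 0.578, 0.503 and 0.379 for RGI1 (adjusted p = 0.00651).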

How the data were processed

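Cy3 intensities of the direct random arrays were deposited as log2 values, 1 per gene and array, which the authors made from the probe intensities with the RMA algorithm and quantile normalization. Which arrays were normalized together and which of the 5 slides held each array are not given in the sources used here, so a slide could not enter a fit. Of 5861 entries, 5739 had a value on every array, and no other filter was applied. Systematic names were matched to symbols in the RefSeq annotation of R64 (5733 genes). The genome build of the probes is not given, so no coordinates are printed, and promoter sequences were not analysed here.

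EPY330 was compared with EPY338 with limma 3.58.1 in R 4.3.3 (lmFit and eBayes) on the 6 arrays, with Benjamini-Hochberg adjustment over all genes. This is a moderated test on log2 values, and the equal-variance t-test of the study's methods was run as an alternative. Every adjusted p in the text is limma's unless another test is named. The number of arrays, 3 per strain, limits the precision. The script was tested on simulated data. The same fit was made within the 6 arrays of each other labeling method, and the interaction of method and strain was tested on all 18.

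The members and lists were chosen with earlier results of these data known. Named genes were, at 99% confidence with groups that do not overlap, the 10 highest and 10 lowest fold-changes and the 10 higher and 10 lower genes under 2-fold with the smallest p. To these were added the 3 smallest called changes in each direction and up to 4 members per list with the smallest p. So were 12 of the genes that the study listed for quantitative PCR or for direct RNA counting. It chose the former with array results in view and the latter by their own counts. For HXT9 it lists PCR primers but no PCR value. Other named genes are said to be chosen after their values were seen. Settings tried were that t-test, the replicate number as a block, 1 fit of all 18 arrays, limma's trended prior variance, repeated quantile normalization of the 6 arrays, centring on the median, leaving out each array or the dimmest 25% of genes, and limma's treat. Tables and figures were made in Python 3.11.15 with pandas 2.3.3 and matplotlib 3.10.9.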

Additional observations from a re-analysis of the deposited data

Results flagged for a closer look

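These 14 named genes differed in their strain effect between direct random and ds-cDNA labeling, by the interaction of method and strain in 1 limma fit of all 18 arrays (adjusted p under 0.05). The values are the log2 fold-change with direct random labeling minus that with ds-cDNA labeling. Among the genes higher in EPY330, the direct random value was the larger by 1.93 for CIS1 (adjusted p = 5.04e-10), 1.78 for HXT9, 1.63 for HXT11, 0.93 for MIG2, 0.89 for HXT3 and 0.79 for YGR035C. TIP1 differed by 0.66, and its ds-cDNA fold-change of 0.98 did not pass the test (adjusted p = 0.899). For SFC1 the difference was -0.48, the ds-cDNA value being the larger.

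Among the genes lower in EPY330, the difference was -1.04 for MF(ALPHA)2, -0.93 for HUG1, -0.72 for SPG1, -0.69 for MBR1 and -0.62 for SPS19, each with the larger decrease by direct random labeling. RGI1 differed by 0.61, with the larger decrease by ds-cDNA labeling. With the indirect method 0 of these genes differed from the direct random method at 95% confidence in limma's interaction test, where 325 of all genes had an unadjusted p under 0.05. Of the 14 genes, HXT9 and HXT11 are near-identical in sequence, so their values may not be independent.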

How the results depend on the processing

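The number of genes at 95% confidence, 1288, became 651 with the methods' t-test and 713 in 1 fit of all 18 arrays, and lay between 850 and 1026 when 1 array was left out, lowest without replicate 2 of EPY338. It became 384 and 159 when limma's treat tested for more than 1.1-fold and 1.2-fold. Under 2-fold, 1246 genes became 611 and 670 with the t-test and the fit of all 18 arrays, and between 806 and 985 without 1 array, lowest again without replicate 2 of EPY338. At 99% confidence 538 became 126 with the t-test, 900 with a prior variance with a trend, 236 with a replicate block and between 280 and 341 without 1 array. The cause was not tested, except that fewer arrays or another estimate of the spread enter these fits by construction. The other settings kept these counts within 1.5 times, and median centring gave 569 higher and 769 lower genes at 95% confidence.

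Same-numbered arrays of the strains did not deviate together (r = 0.008, -0.096 and -0.04, and between -0.045 and 0.091 for other pairs), so that the numbers do not pair the arrays. With the replicate block the count at 95% confidence was 924 and that under 2-fold 882. Of 185 named genes 63 lost the call in at least 1 of up to 13 alternatives, the others kept direction and side of the threshold in each of them, and 0 reversed. Differences below about 1.1-fold were mostly not resolved with 3 labelings of 1 RNA pool per strain, and no setting measured the spread between cultures.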

Other observations

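Genes of the mitochondrial DNA, a group chosen after its values were seen, were mostly higher in EPY330 on the direct random arrays. Of 19 measured genes 14 were called higher and 0 lower at 95% confidence (limma), beside 11.0% of all genes higher, and all 19 had a positive log2 fold-change, with a median of 0.318. The medians of the other chromosomes lay between -0.022 and -0.001. BI4, an intron-encoded maturase of the cytochrome b gene, read 11.39, 11.58 and 11.46 log2 units in EPY330 and 10.49, 10.42 and 10.90 in EPY338, a fold-change of 1.83 (adjusted p = 0.00299). AI3, an endonuclease encoded in an intron of COX1, read 13.50, 13.62 and 13.66 against 13.23, 13.05 and 13.17, a fold-change of 1.36 (adjusted p = 0.00328), a call that was lost in the fit of all 18 arrays (adjusted p = 0.0793). Both lie within the gene that hosts their intron, so their probes may also bind unspliced host transcripts. Of the host genes, COB, cytochrome b, had a fold-change of 1.04 (adjusted p = 0.545) and COX1 one of 1.18 (adjusted p = 0.0792). Calls were not limited to intron-encoded genes, since ATP8 (2.26; adjusted p = 0.0133), COX3 (1.25; adjusted p = 0.016) and ATP6 (1.12; adjusted p = 0.0357) were called higher as well. The methods' t-test did not keep the calls of ATP8 (adjusted p = 0.0994) and COX3 (adjusted p = 0.0837), and COX3 also lost its call without replicate 2 of EPY330. The fit of all 18 arrays kept both (adjusted p = 0.0264 and 0.0336). COX2 (1.02; adjusted p = 0.734), OLI1 (1.11; adjusted p = 0.0912) and VAR1 (1.04; adjusted p = 0.264) did not pass. The median was 0.347 with the indirect method, where 2 genes were called, and 0.022 with the ds-cDNA method, where 0 were called by limma. The number called higher was 8 without replicate 2 of EPY330, 9 without its replicate 3 or without replicate 2 of EPY338, and 4 with the methods' t-test or in the fit of all 18 arrays.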
